A study of Mus musculus with 7 samples.

Results

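The 40 genes described here are named cell cycle and DNA replication genes, and they were followed through the accessibility of their promoters in mouse liver at 2 ages. A region of the deposited count table was assigned to a gene when it overlapped the 200 bp on either side of a transcription start site (TSS) of any GENCODE M21 transcript of that gene, and the region with the highest mean level was kept where a gene had several. All 40 genes had such a promoter region, among 13037 protein-coding genes with one and 55680 regions in all. The genes were grouped by role into 10 genes of origin licensing and the replicative helicase, 10 cyclins, kinases and phosphatases, 5 cell cycle transcription factors, 5 genes of nucleotide supply and the replication clamp, and 10 genes of mitosis.

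ATAC-seq, in which the Tn5 transposase inserts adapters into open DNA, was carried out on nuclei from whole liver of C57BL/6N mice, for which the labels name no transgene or treatment. The young group held 3 samples from mice of 3 months and the aged group 4 samples from mice of 18 months, all male per the study's methods. The aged samples came from only 3 animals, since 2 of them are lobules of a single liver, and the labels do not say which. The p-values below treat all 4 as independent. Levels are given as CPM, the counts of a region per 1000000 counts of the library after TMM normalization, and fold changes as log2 of aged over young. Total counts in regions ran from 4474652 to 25461110 per sample, and the median count of the 40 promoter regions ran from 129.5 to 754.5 per sample. Samples of the same age differed by more than counting noise in every pair, so no library was counted once for 2. Of the marker genes of liver cell types, all 7 hepatocyte markers had a promoter region, against 1 of 6 for macrophages, 0 of 8 for lymphocytes, 3 of 5 for endothelial cells, 2 of 5 for stellate cells and 3 of 5 for cholangiocytes.

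Progression through the cell cycle is ordered in time. In G1 the MCM helicase is loaded at origins, E2F transcription factors and cyclin E with CDK2 then start DNA synthesis, and cyclin B with CDK1 drives mitosis. The spindle checkpoint delays the anaphase-promoting complex, which brings mitosis to an end. Promoters of replication genes often carry E2F sites, while those of mitotic genes often carry CCAAT boxes and a cell cycle homology region (CHR), which the DREAM and MuvB complexes bind. Adult hepatocytes are almost all out of the cycle but can return to it after injury or partial removal of the liver. An open promoter does not by itself tell whether the gene is transcribed.

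Sequence elements known from replication and mitotic promoters were searched in these genes. RefSeq promoter entries on GRCm38.p6, covering 250 bases before and 50 bases after the start, were found for 34 of the 40 genes. Mcm4, Ccna2, Ccne2, Cdc25c, Foxm1 and Aurkb had none in the table. The letters searched on both strands were CCAAT for the CCAAT box, TTTGAA and TTCGAA for the CHR, TTTCCCGC, TTTCGCGC, TTTGCCGC and TTTGGCGC for the E2F site, and GGGCGG for the GC box. Matches of different motifs overlapped in 1 promoter. The 250 bases before the start are shown for 5 genes, on the coding strand, with matches to the CCAAT box, CHR or E2F letters on either strand in capitals where the whole match lies in these bases. Ccnf (chr17:24251410-24251659, minus strand) and Cdc45 (chr16:18811973-18812222, minus strand) are shown as promoters called more accessible in aged liver, Mcm6 (chr1:128359706-128359955, minus strand) as the licensing promoter with the most E2F matches, and Ccnb2 (chr9:70421555-70421804, minus strand) and Cdc20 (chr4:118437344-118437593, minus strand) as promoters with CCAAT boxes and a CHR whose values were lower in aged liver without passing the test.
Ccnf: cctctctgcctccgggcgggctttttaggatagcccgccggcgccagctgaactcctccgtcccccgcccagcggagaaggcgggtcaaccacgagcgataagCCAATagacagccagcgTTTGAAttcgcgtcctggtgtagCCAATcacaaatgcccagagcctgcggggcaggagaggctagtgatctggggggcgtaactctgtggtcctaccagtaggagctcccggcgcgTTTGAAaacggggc
Cdc45: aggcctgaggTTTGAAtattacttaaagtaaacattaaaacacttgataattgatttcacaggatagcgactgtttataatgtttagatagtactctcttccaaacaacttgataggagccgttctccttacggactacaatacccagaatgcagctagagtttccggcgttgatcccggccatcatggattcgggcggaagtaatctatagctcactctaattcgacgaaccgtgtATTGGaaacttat
Mcm6: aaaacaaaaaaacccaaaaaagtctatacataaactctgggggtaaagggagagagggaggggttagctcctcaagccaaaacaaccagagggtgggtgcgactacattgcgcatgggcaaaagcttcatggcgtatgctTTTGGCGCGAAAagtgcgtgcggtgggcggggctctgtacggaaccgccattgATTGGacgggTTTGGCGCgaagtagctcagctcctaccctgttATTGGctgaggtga
Ccnb2: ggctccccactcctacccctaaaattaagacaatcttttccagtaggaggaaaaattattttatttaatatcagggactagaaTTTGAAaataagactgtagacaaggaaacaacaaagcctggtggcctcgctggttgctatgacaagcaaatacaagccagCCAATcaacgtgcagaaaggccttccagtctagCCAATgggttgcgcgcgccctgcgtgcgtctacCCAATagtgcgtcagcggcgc
Cdc20: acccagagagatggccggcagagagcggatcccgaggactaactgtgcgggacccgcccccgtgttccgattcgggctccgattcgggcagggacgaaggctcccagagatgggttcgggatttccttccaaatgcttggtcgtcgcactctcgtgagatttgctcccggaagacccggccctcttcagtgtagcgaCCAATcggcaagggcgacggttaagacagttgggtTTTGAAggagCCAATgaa

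The 5 sequences differ in the motifs they hold. Mcm6, a subunit of the MCM helicase, held 3 matches to the E2F letters, of which the ones at -110 and -106 from the start overlap on opposite strands, and 2 CCAAT boxes. Ccnb2, a B-type cyclin, held 3 CCAAT boxes at -87, -54 and -21 and CHR matches at -167 and 4. In Cdc20, the activator of the anaphase-promoting complex, a CHR match at -18 lay between CCAAT boxes at -53 and -8. Ccnf, in the cyclin group, held 2 CCAAT boxes and 2 CHR matches and no E2F match. Cdc45, a helicase gene in the group of origin licensing and the helicase, likewise held 2 CCAAT boxes and 2 CHR matches and no E2F match. The role groups are thus not cleanly divided by motif. The E2F letters were present in 10 of the 34 promoters, against 4.01% of 14330 promoters at accessible regions, and in 6 of 9 licensing promoters and 0 of 9 mitotic promoters. A CHR was present in 16 of 34 promoters, against 13.7% of promoters at accessible regions, and in 8 of 9 mitotic promoters. All 16 of those promoters also held a CCAAT box, a combination found in 5.63% of promoters at accessible regions. The CCAAT box alone was found in 27 of 34 (background 37.5%) and the GC box in 29 of 34 (background 62.3%). The matches describe letters within these windows and do not mark binding.

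With age, 4 of the 40 promoter regions became more accessible and 0 became less accessible. The 4 genes were Ccnf, Pcna, Cdc45 and Mcm10, at 1.34 to 1.48 times the young level (edgeR quasi-likelihood test across all regions, Benjamini-Hochberg adjusted p under 0.05). They make up 10% of the genes, beside 5.02% of all protein-coding genes with a promoter region called higher and 1.49% called lower. At an unadjusted p under 0.05, 14 of the 40 regions differed, beside 35.0% of all protein-coding genes. The log2 fold change, aged over young, ran from -0.57 to 0.56 with a median of 0.11, beside a median of 0.13 over all protein-coding genes. It was above 0 for 27 of the 40 genes (67.5%) and for 66.7% of all protein-coding genes. In 13 genes every aged sample lay above every young sample (background 24.0%), and in 2 genes, Ccnb2 and Plk1, every aged sample lay below every young sample (background 7.82%). In the other 25 genes the ages overlapped. E2f2 is counted among the 27 and the 13 at a region that its aged values decided, and was below 0 at its upstream start. The share above 0 was thus close to that of genes in general, and the other shares were not tested against it.

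**Figure D1:**
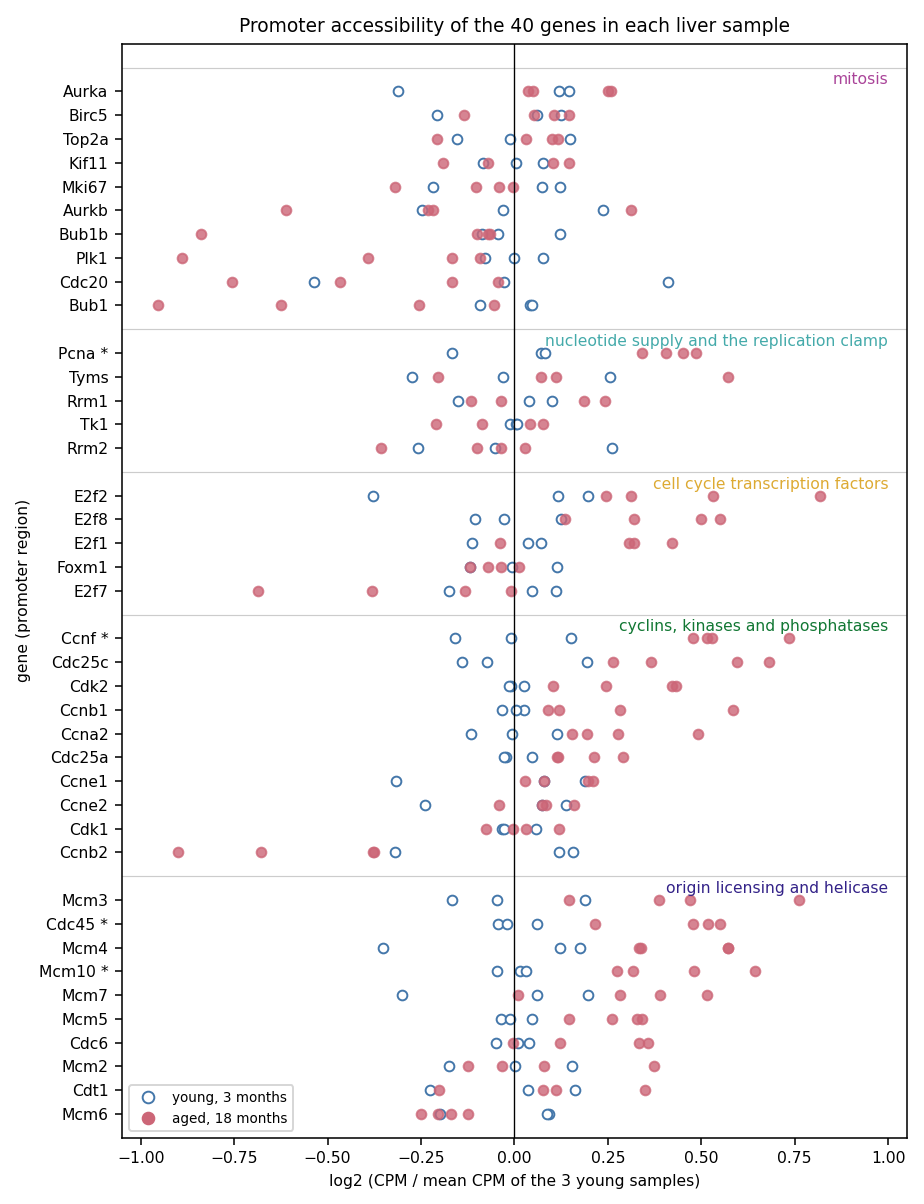
Promoter accessibility of the 40 genes in each sample, as log2 of the normalized counts (CPM) over the mean CPM of the 3 young samples, with genes grouped by role and ordered by fold change within a role. Open circles are young samples and filled circles aged samples, and an asterisk marks the 4 genes called more accessible. Filled circles lie right of the open ones for 13 genes, none of them in the mitosis group, and left of them for Ccnb2 and Plk1.

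The median of all promoters depended on the scaling of the libraries. TMM normalization, used throughout, put the median of all protein-coding promoters at 0.13. With library sizes set to the total count in regions that median was 0.012 and the median of the 40 genes -0.007. Relative to the median of all genes, the 40 genes lay at -0.02 with both scalings. With total counts, 20 of the 40 genes were above 0 and Ccnf was the gene still called, beside 1.67% of all protein-coding genes called higher and 2.97% lower.

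Genes of origin licensing and the helicase held 2 of the 4 calls, at Cdc45 and Mcm10. The median log2 fold change of the group was 0.29 (0.17 with total counts, 0.10 with abundance offsets), and 9 of its 10 genes were above 0 (7 with total counts, 8 with abundance offsets). Cdc45, which joins the MCM ring to form the active helicase, had its promoter region at chr16:18811304-18812786. It measured 38.2, 35.6 and 36.2 CPM in young samples 1 to 3 and 52.5, 42.6, 53.7 and 51.0 CPM in aged samples 1 to 4. All aged samples were above all young ones, with a log2 fold change of 0.45 ± 0.12 (SE, adjusted p = 0.0402). The region also covers the start of Ufd1, a cofactor of the p97 segregase, so the counts cannot be assigned to either gene.

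The call at Mcm10, a factor that stabilizes the helicase at the fork, did not concern its annotated start. The region chosen as its promoter (chr2:4992955-4997207) lies at the starts of 3 retained-intron transcripts, 16897 to 19534 bp into the gene, and overlaps 5 coding exons. It measured 91.6, 95.6 and 96.8 CPM in the young and 115, 118, 148 and 132 CPM in the aged samples, with a difference of 0.43 ± 0.12 on the log2 scale (adjusted p = 0.0433). At the annotated start (chr2:5012495-5013587) the values were 20.8, 21.3 and 19.2 CPM in young and 22.9, 15.5, 20.1 and 19.7 CPM in aged liver. The ages overlapped there, with a difference of -0.06 ± 0.16 on the log2 scale (adjusted p = 0.853). Another region, at a further internal start (chr2:5001064-5001987) was lower in every aged than in every young sample, at a difference of -0.43 ± 0.18 on the log2 scale (adjusted p = 0.149). With the region nearest the annotated start taken for each gene, 3 of the 40 genes were called, Mcm10 being lost.

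The subunits of the MCM ring did not form a uniform set. Mcm4 measured 56.4, 58.5 and 40.6 CPM in young and 77.0, 65.3, 77.0 and 65.5 CPM in aged liver (log2 fold change 0.45 ± 0.14, adjusted p = 0.0654). Its aged samples were all above the young ones, and the region is shared with the start of Prkdc, the catalytic subunit of DNA-dependent protein kinase. Mcm3 measured 21.3, 25.1 and 19.6 CPM in young and 37.2, 24.3, 28.7 and 30.4 CPM in aged liver (0.46 ± 0.16, adjusted p = 0.0962), with aged sample 2 inside the young range. Mcm5 measured 32.3, 32.8 and 34.2 CPM against 42.0, 41.6, 39.7 and 36.7 CPM, without overlap (0.27 ± 0.11, adjusted p = 0.150). These promoters were thus higher on average in aged liver, with errors that left each short of the threshold. Mcm7, which shares its region with the adaptor subunit gene Ap4m1, measured 71.5, 65.0 and 50.6 CPM against 81.6, 62.8, 75.9 and 89.1 CPM (0.31 ± 0.14, adjusted p = 0.197). Mcm2 overlapped between the ages, at 21.9 ± 2.47 CPM in young and 23.2 ± 3.64 CPM in aged samples (SD, n = 3 and 4). Mcm6 was the 1 licensing gene below 0, at 18.3 ± 2.05 and 16.1 ± 0.589 CPM (-0.19 ± 0.15, adjusted p = 0.450). None of the genes of the 6 ring subunits passed the test.

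The loading factors Cdc6 and Cdt1, which bring the ring to origins, also overlapped between the ages. The difference was 0.22 ± 0.14 on the log2 scale for Cdc6 (adjusted p = 0.354) and 0.09 ± 0.14 for Cdt1 (adjusted p = 0.749).

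Among cyclins, kinases and phosphatases, Ccnf carried the largest increase of the 40 genes. Cyclin F is the substrate receptor of an SCF ubiquitin ligase that restrains replication factors late in the cycle. Its promoter region (chr17:24250973-24252020) measured 40.8, 45.6 and 36.8 CPM in young and 58.7, 57.3, 59.3 and 68.3 CPM in aged liver, with no overlap. The aged mean was 1.48 times the young mean, a difference of 0.56 ± 0.12 on the log2 scale (adjusted p = 0.0193). A region in the gene body (chr17:24243092-24244068) had the opposite sign, with 8.61, 11.1 and 7.89 CPM in young and 7.47, 3.73, 5.84 and 5.98 CPM in aged samples (-0.66 ± 0.24, adjusted p = 0.113). The 2 other body regions of Ccnf were at 0.29 ± 0.22 and 0.04 ± 0.16, and none of the 3 passed the test. No other start shares the promoter region of Ccnf.

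Of the 5 other cyclins, 4 were above 0 and Ccnb2 below, and none passed the test. Ccna2, the S and G2 phase cyclin A, measured 47.8, 51.9 and 44.2 CPM in young and 67.4, 58.1, 54.9 and 53.3 CPM in aged liver (0.28 ± 0.12, adjusted p = 0.157), and Ccnb1 also showed no overlap (0.29 ± 0.14, adjusted p = 0.208). Ccnb2 ran the other way, with 7.03, 9.79 and 9.54 CPM in young and 6.76, 5.49, 6.77 and 4.71 CPM in aged liver. This was the largest negative value of the 40 genes (-0.57 ± 0.23, adjusted p = 0.140), though young sample 1 lay only just above the highest aged sample. The mitotic cyclins Ccnb1 and Ccnb2 thus had opposite signs, each with an error that left it short of the threshold, and the difference between the genes was not tested. The G1/S cyclins Ccne1 and Ccne2 overlapped between the ages (0.13 ± 0.13 and 0.06 ± 0.12).

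None of the cyclin-dependent kinases and their phosphatases passed the test. Cdk2 measured 33.0, 32.9 and 33.9 CPM in young and 44.9, 39.4, 35.7 and 44.5 CPM in aged liver, without overlap (0.32 ± 0.12, adjusted p = 0.122). The region of Cdk2 is shared with Pmel. Cdc25c, a phosphatase that activates CDK1, measured 16.01, 19.3 and 15.3 CPM in young and 27.1, 25.5, 21.7 and 20.2 CPM in aged liver (0.48 ± 0.16, adjusted p = 0.0833), in a region shared with 2010110K18Rik. Cdc25a, the related phosphatase of the G1/S transition, showed no overlap either (0.19 ± 0.10, adjusted p = 0.286). Cdk1 had nearly equal means of 25.3 ± 0.898 CPM in young and 25.6 ± 1.45 CPM in aged samples (0.02 ± 0.13), in a region at an internal retained-intron start. At the annotated start of Cdk1 the log2 fold change was 0.07 ± 0.16 (adjusted p = 0.813).

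**Figure D2:**
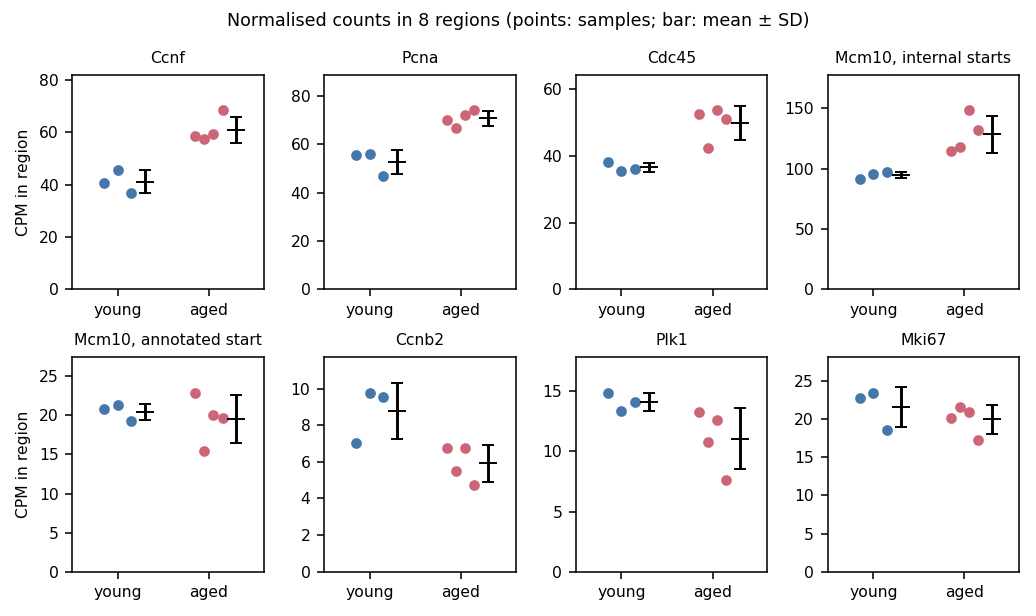
CPM in each young and aged sample in 8 regions of 7 genes, with the mean and SD beside the points and every axis starting at 0. The upper row shows the 4 called regions, in which every aged sample lies above the young samples, and the lower row shows the annotated start of Mcm10, Ccnb2, Plk1 and the proliferation marker Mki67, none of which passed the test.

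Among the 5 transcription factors, which include activating and repressing E2F members, 3 were above 0 and none passed the test. E2f2 was 1 of these 3 at the region taken for it and was below 0 at its upstream start. E2f8, an atypical E2F that represses, measured 58.1, 68.2 and 61.3 CPM in young and 91.5, 68.6, 88.5 and 78.0 CPM in aged liver (0.38 ± 0.12, adjusted p = 0.0762), in a region shared with Gm2788. Aged sample 2 was only just above young sample 2. E2f7, the other atypical E2F, had the opposite sign and overlapped (-0.26 ± 0.18, adjusted p = 0.393). Of the activators, E2f1 overlapped between the ages (0.26 ± 0.12, adjusted p = 0.204). E2f2 depended on the region taken. At the region with the highest level (chr4:136180061-136181481), which GENCODE gives as the start of a processed transcript and where RefSeq places a start at 136180782, it measured 22.8, 21.5 and 15.3 CPM in young and 24.7, 23.5, 28.7 and 35.0 CPM in aged liver (0.48 ± 0.18, adjusted p = 0.113). The region was taken for its mean over both ages, and in young liver its 19.9 CPM was below the 22.6 CPM of the upstream region, so the aged values decided the choice and favoured a positive difference. At the upstream start of E2f2 (chr4:136171899-136173609) the log2 fold change was -0.21 ± 0.15 (adjusted p = 0.411). Foxm1, the activator of G2 and mitotic genes, stood at 17.7 ± 1.42 CPM in young and 17.0 ± 0.651 CPM in aged samples (-0.06 ± 0.15).

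In nucleotide supply and the replication clamp, Pcna was the gene called. PCNA is the sliding clamp of the replicative polymerases. Its promoter region (chr2:132252578-132253516) measured 55.4, 55.8 and 47.0 CPM in young and 69.8, 66.9, 72.1 and 73.9 CPM in aged liver. All aged samples exceeded all young ones, with a difference of 0.42 ± 0.11 on the log2 scale (adjusted p = 0.0402). The region also holds the start of the antisense transcript AV099323, and ATAC-seq counts carry no strand. Per kilobase of region it was among the most open promoters, at percentile 96.7 of all protein-coding genes. The enzymes of dNTP synthesis stayed within their spread. Rrm1 and Rrm2, the subunits of ribonucleotide reductase, had log2 fold changes of 0.07 ± 0.14 and -0.09 ± 0.15. Tyms, thymidylate synthase, had 0.16 ± 0.22, and Tk1, thymidine kinase, had -0.04 ± 0.11, with its region shared with Afmid. All 4 enzymes overlapped between the ages.

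No mitotic gene passed the test, and 7 of the 10 were below 0 (6 with DESeq2 or GC offsets, 9 with total counts, 8 with abundance offsets). The median log2 fold change of the group was -0.15 (-0.12 with DESeq2, -0.09 with GC offsets, -0.26 with total counts, -0.19 with abundance offsets). Plk1, the polo-like kinase of mitotic entry, measured 14.9, 13.4 and 14.1 CPM in young and 13.3, 10.8, 12.6 and 7.64 CPM in aged liver (-0.35 ± 0.20, adjusted p = 0.298). The aged samples lay below the young ones, but the highest aged and lowest young sample nearly met. Bub1 and Bub1b, kinases of the spindle checkpoint, had log2 fold changes of -0.40 ± 0.24 and -0.24 ± 0.19, and Cdc20 had -0.37 ± 0.26, all with overlapping samples. Aurora kinases A and B differed in sign, with Aurka at 0.14 ± 0.14 in a region shared with Cstf1 and Aurkb at -0.16 ± 0.22. Mki67, whose protein marks cycling cells, was at 21.6 ± 2.66 CPM in young and 20.003 ± 1.89 CPM in aged samples (-0.13 ± 0.15, adjusted p = 0.634). Top2a, Kif11 and Birc5, for decatenation, spindle assembly and chromosome segregation, had log2 fold changes of 0.02, -0.0006 and 0.04.

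The roles also differed in promoter level. Mitotic promoters, which had the lowest median fold change, also had the lowest level, with a median of 17.0 CPM per kilobase of region in young liver and percentile 27.9 of all protein-coding genes. Transcription factor promoters, with a median log2 fold change of 0.26 (0.14 with total counts, 0.0017 with abundance offsets), stood at 17.4, nucleotide supply at 26.6, licensing at 27.5 and cyclins, kinases and phosphatases at 32.9 CPM per kilobase. The median of the transcription factors counts E2f2 at the region taken through its aged values. With the upstream start of E2f2 (-0.21) instead, Foxm1 (-0.06) becomes the middle gene of the 5. Across all protein-coding genes, the median log2 fold change ran from -0.44 in the lowest decile of mean promoter level to 0.35 in the highest decile. Across the 40 genes the correlation of mean log2 CPM with the log2 fold change was r = 0.66 (rho = 0.57), and across the 13037 genes it was r = 0.71 (rho = 0.70). These are correlations over genes that share the same 7 libraries and their depths, and the mean level contains the aged values.

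Set against the median of all genes in the same decile of level, the groups drew together by this measure. The median difference became 0.10 for licensing, 0.04 for nucleotide supply, 0.01 for transcription factors, 0.005 for cyclins, kinases and phosphatases and -0.001 for mitosis. Offsets fitted on mean abundance left mitosis apart, at a median log2 fold change of -0.19 with 2 of 10 genes above 0. Licensing was then at 0.10, and the other groups lay from -0.0085 to 0.0041. Of the 17 genes in the upper 5 deciles of level, 16 were above 0 and 4 were called, beside 92.9% above 0 and 9.17% called higher among all protein-coding genes at those levels. Of the 23 genes in the lower 5 deciles, 11 were above 0 and 0 were called by the edgeR test, with 4 at an unadjusted p under 0.05, beside 40.5% above 0 and 0.874% called higher among all genes there. Within the upper deciles Tk1 and Birc5 lay furthest below the median of their level, at -0.34 and -0.31. Cdc25c and E2f2 (0.45 each) and Mcm3 (0.43) lay furthest above the median of theirs, the region of E2f2 having been taken through its aged values. With offsets fitted on mean abundance, 0 of the 40 genes were called, beside 0.115% of all protein-coding genes called higher and 0.568% lower, and the median of the 40 was -0.003. What accounts for the relation with level was not tested.

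**Figure D3:**
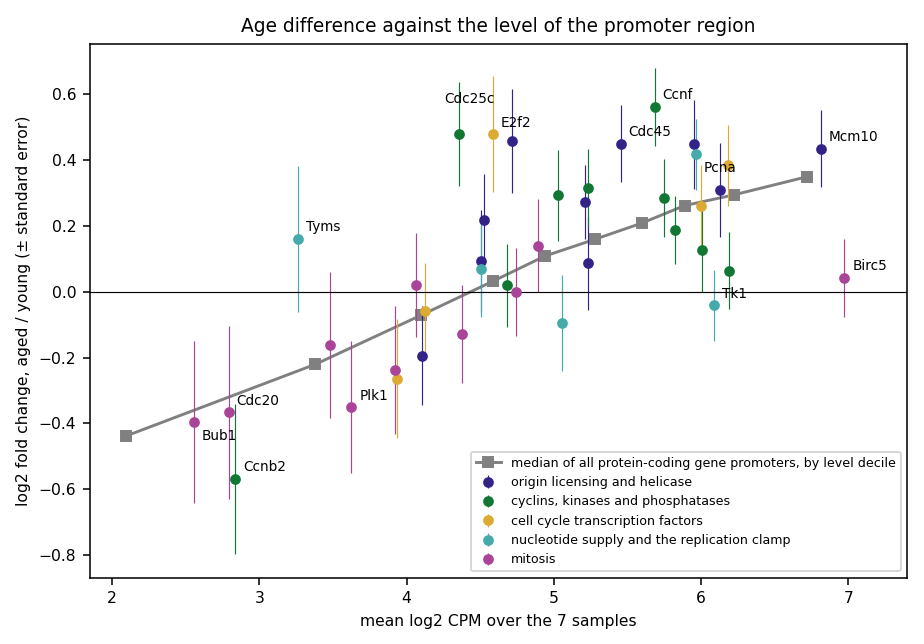
Log2 fold change of each of the 40 promoter regions (points, with the standard error of the fit) against its mean log2 CPM over the 7 samples, coloured by role. The grey line joins the medians of all protein-coding genes in 10 equal bins of level, which run from -0.44 to 0.35, and most of the 40 genes lie around it, with Cdc25c and E2f2 furthest above it and Ccnb2, Tk1 and Birc5 furthest below.

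Promoters shared with the start of another gene were a second feature that the choice of genes had not used. The 11 genes with a shared region had a median log2 fold change of 0.32, and the 29 others had a median of 0.07. Their levels differed too, at median percentiles of 61.8 and 49.9, and relative to genes of the same level decile the medians were 0.089 and 0.022. None of the promoter regions of the 40 genes aligned to a second place in the genome at 95% identity over 80% of its length. Grouped by motif, promoters with a CHR had a median log2 fold change of 0.02 (15 genes with the start inside the region) and those without one 0.16 (17 genes). Promoters with the E2F letters had a median of 0.22 (9 genes) and those without 0.07 (23 genes). These medians are descriptions, and the motif groups also differ in role and level.

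Outside their promoters, the 40 genes had 12 further regions in 9 gene bodies, of which 0 were called in either direction by the edgeR test, while 4 had an unadjusted p under 0.05. Of all regions in protein-coding genes outside promoters, 4.81% were called and 20.9% had an unadjusted p under 0.05. The median log2 fold change of the 12 regions was 0.05, with a range from -0.99 to 0.49. The most negative lay in Foxm1 (chr6:128369742-128370383), with 6.39, 4.99 and 2.96 CPM in young and 2.28, 2.35, 1.87 and 3.18 CPM in aged liver (-0.99 ± 0.31, adjusted p = 0.0731). In E2f8 a region that also covers a start of Gm2788 (chr7:48876663-48878544) measured 24.6, 28.4 and 44.2 CPM in young and 48.2, 38.8, 47.9 and 38.6 CPM in aged liver (0.44 ± 0.18, adjusted p = 0.143). In Tk1 a body region (chr11:117818553-117819737) was lower in every aged than in every young sample (-0.34 ± 0.15, adjusted p = 0.182).

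A list of 116 further genes of the same pathways, all of them with a promoter region, was examined in the same way. Of these, 8 became more accessible (6.90%, beside 5.02% of all genes) and 1 less accessible, beside 1.49% of all genes. The median log2 fold change was 0.17. The more accessible genes included the helicase gene Mcm9, Gins2 of the replicative helicase, Dut of nucleotide supply, the transcription regulators E2f3 and Lin52, the condensin subunit Ncapd2 and the kinetochore subunit Spc24. Mcm9, a helicase of meiosis and repair, had the smallest adjusted p, with 71.1 ± 1.97 CPM in young and 109 ± 9.90 CPM in aged samples (SD, n = 3 and 4, log2 fold change 0.61, adjusted p = 0.0120). Dut, the dUTPase, rose by 0.47 on the log2 scale (adjusted p = 0.0205). Gins2, Ncapd2 and Lin52 also shared their regions with other starts.

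The gene that became less accessible was Ccnd1, the cyclin D1 of the G1 phase. The region (chr7:144939583-144939876) is short and weak and measured 11.02, 6.16 and 6.41 CPM in young and 3.25, 3.14, 3.97 and 2.67 CPM in aged liver. Every aged sample lay below every young one, with a difference of -1.29 ± 0.28 on the log2 scale (adjusted p = 0.0212). The region is in the lowest decile of level, in which 7.13% of all protein-coding genes were called lower. With TSS windows of 1000 bp on either side another region was taken for Ccnd1 and 0 of the 116 genes were called lower. Among 14 genes of G1 cyclins, kinases and their inhibitors, Ccnd1 was the 1 gene called in either direction.

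Marker promoters of the liver cell types were read beside these values, and 1 of 16, that of Apoa1, passed the test, with higher values in aged liver. The summed CPM of the 7 hepatocyte marker promoters was 573 to 644 in young and 735 to 848 in aged samples. Their median log2 fold change was 0.30, and 0.009 relative to genes of the same level decile. The summed CPM of the 2 stellate markers with a promoter region was 20.9 to 24.0 in young and 11.9 to 19.0 in aged samples. Those of the 3 endothelial markers (57.2 to 62.0 and 44.5 to 75.1) and the 3 cholangiocyte markers (43.8 to 52.0 and 39.4 to 56.9) overlapped, as did Clec4f, the 1 macrophage marker, at 2.22 to 2.65 and 0.588 to 2.80 CPM. These 3 sums were largely those of Reln, Stab2 and Sox9 (18.7, 42.6 and 42.7 CPM in young liver). Epcam (-0.77) and Reln (-0.64) were lower in every aged than in every young sample. Lrat, Kdr, Cdh5 and Sox9 were below 0 with overlap, and Stab2 (0.05) and Spp1 (0.16) above 0. Relative to the same level decile, medians were -0.18 for stellate, -0.11 for endothelial and -0.21 for cholangiocyte markers. A different share of cell types and a different accessibility per cell cannot be told apart in whole tissue, and their part in the values of the 40 genes was not tested.

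The number of calls was small and depended on the libraries and the settings, as did the share of all protein-coding genes called. Leaving out aged sample 1, aged sample 3 or young sample 1 left 0 of the 40 genes called, beside 0.161%, 0.314% and 0.115% of all protein-coding genes called higher. Leaving out young sample 2 or young sample 3 left 1, beside 0.338% and 3.19% of all genes. With GC offsets 8 genes were called, beside 21.4% of all genes, and with DESeq2 6, beside 11.9%. With each possible pair of aged samples summed to stand for the shared animal, 1 to 6 genes were called, beside 0.591% to 9.15% of all genes. Ccnf passed the test in 20 of 24 alternatives and Cdc45 in 12, while Pcna and Mcm10 passed in 9 each. All 3 of Ccnf, Cdc45 and Pcna were above 0 in every alternative.

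**Figure D4:**
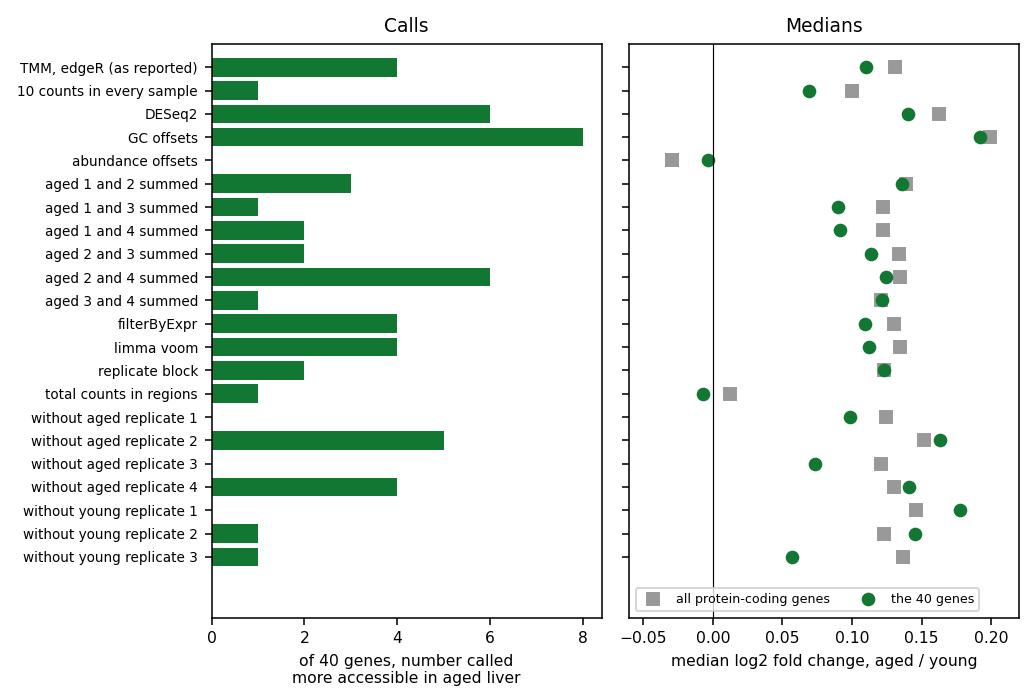
The number of the 40 genes called more accessible (left) and the median log2 fold change (right) under each normalization, filter, test and choice of samples, with the median of all protein-coding genes as grey squares. Calls run from 0 to 8, while the share of all protein-coding genes called higher runs from 0.115% to 21.4%. The median of the 40 genes falls with that of all genes, to -0.003 with abundance offsets and -0.007 with total counts. The 2 medians do not move together in every setting. They are 0.145 and 0.123 without young sample 2, and 0.057 and 0.137 without young sample 3.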

How the data were processed

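ATAC-seq of young and aged mouse liver was analysed from the deposited table of raw counts, 1 column per sample. Per the study's methods and the submitters' processing notes, the authors trimmed paired-end reads with cutadapt 1.13, aligned them to GRCm38 with Bowtie2 2.4.1, removed PCR duplicates, mitochondrial and low-quality reads, called peaks with MACS2 2.2.7, kept peaks present in at least 2 libraries, and counted reads per peak with featureCounts. The deposited counts are not normalized. A peak set built from these samples favours regions that are open in them, and weak promoters can be missing from it. Whether Tn5 insertion sites were shifted is not given in the sources used here.

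The 40 genes, the other lists and the tests were chosen with earlier results of these data known. All 55680 regions were fitted in edgeR 4.0.16 (R 4.3.3) with TMM normalization and age as the only factor, by the quasi-likelihood test, and p-values were adjusted over all regions by the method of Benjamini and Hochberg. A region was called at an adjusted p under 0.05. CPM are counts per 1000000 counts of the TMM-scaled library, and log2 CPM used a prior count of 2. Promoter sequences came from RefSeq (GRCm38.p6), and near-identical copies (95% identity over 80% of the length) were searched with minimap2 2.31. Values in every sample are given for the called genes and for those with the smallest adjusted p, 14 genes at most, and those of Plk1 and of second or gene body regions were added after their values were seen.

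Alternatives were DESeq2 1.42.0 (the authors used another version), limma voom (limma 3.58.1), library sizes from total counts, loess offsets on abundance or GC content (span 0.3), filters on low counts (filterByExpr, or at least 10 counts in every sample), a threshold of 0.01, other promoter definitions, each sample left out, each of 6 pairs of aged samples summed, the replicate number as a block, and genes with shared regions left out, the last being chosen after seeing the data. The fitting script was tested on simulated data. Depth limits weak regions most, the lowest count among the 40 promoter regions being 18.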

Additional observations from a re-analysis of the deposited data

Results flagged for a closer look

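The promoter region of Bub1b, a kinase of the spindle checkpoint, had 1 sample far from the others of its group. Aged sample 4 was at a log2 CPM of 3.25, against 3.97 to 4.01 in the rest of the aged group and 3.99 to 4.19 in young liver. The gap to the nearest aged sample was 0.954 of the range of the aged group, above Dixon's critical value for 4 samples. Of 49 promoter regions examined, 1 was flagged in this way, and chance flags about 1 in 20 groups.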

How the results depend on the processing

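The count of 4 more accessible promoter regions among the 40 genes became 8 with GC offsets (21.4% of all protein-coding genes called higher), 1 with at least 10 counts in every sample (1.38%) or with total counts (1.67%), 0 with abundance offsets (0.115%) or a threshold of 0.01, and 2 without the genes that share a region, and it ran from 0 to 5 over the samples left out. With aged samples 1 and 3 or 3 and 4 summed it was 1, beside 0.591% and 1.99% of all protein-coding genes. With 1 and 4 or 2 and 3 summed it was 2, beside 3.03% and 2.41%. No gene of the 40 was called less accessible under any alternative. Their median of 0.11 became -0.0034 with abundance offsets and -0.0068 with total counts, and ran from 0.06 to 0.18 over the samples left out. The cause of these shifts was not tested.

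Replicate numbers did not pair the samples, since same-numbered young and aged samples had correlations of their deviations of -0.119, 0.0565 and 0.0298. With the number as a block, 2 of the 40 genes were called (Ccnf and Cdc25c), beside 3.27% of all protein-coding genes called higher and 2.37% lower, and 1 gene body region, in Foxm1, was called lower.

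Of the 116 other genes, the 8 called higher became 16 with DESeq2 (11.9% of all protein-coding genes), 14 with limma voom (9.20%) and 24 with GC offsets (21.4%). The count was 4 with total counts (1.67%), 3 with at least 10 counts (1.38%), and 0 with abundance offsets (0.115%) or the threshold of 0.01. It was 4 without shared regions. Summing aged 1 and 2 (3.90%), 2 and 3 (2.41%) or 3 and 4 (1.99%) gave 5, and aged 1 and 3 (0.591%) gave 2. Over the samples left out it ran from 0 to 10 (0.115% to 6.66%). The 1 called lower, beside 1.49% of all protein-coding genes, became 2 with GC offsets (1.83%) or aged 2 and 4 summed (2.15%). It became 3 with limma voom (2.17%), 5 with total counts (2.97%), and 0 with the threshold of 0.01 or windows of 1000 bp. Over the samples left out it ran from 0 to 1 (0.069% to 2.28%). Their median of 0.17 became 0.021 with abundance offsets and 0.0498 with total counts. In gene bodies the 0 calls became 1 higher with GC offsets and 1 lower with total counts, and 0 to 1 in each direction over the samples left out. The median there, 0.05, ran from -0.0090 to 0.13 over the samples left out and became 0.18 with GC offsets, -0.14 with abundance offsets and -0.068 with total counts.

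Of 960 fold changes of single genes under 24 alternatives, 861 kept their sign and side of the threshold, 44 lost the call, 12 gained it and 43 changed sign, in 15 genes. With the annotated start or protein-coding transcripts alone, Mcm10 became -0.059 and E2f2 -0.21. Abundance offsets turned Cdt1 (-0.087), Ccne1 (-0.13), Ccne2 (-0.21), Cdk1 (-0.078), Cdc25a (-0.049), Rrm1 (-0.0085) and Birc5 (-0.31). Total counts turned Mcm2 (-0.023), Cdt1 (-0.033), Ccne2 (-0.054), Cdk1 (-0.098), Rrm1 (-0.048), Top2a (-0.097) and Birc5 (-0.076). GC offsets turned Tk1 (0.11) and Kif11 (0.14), windows of 1000 bp Tk1 (0.11), the filter of 10 counts Cdk1 (-0.021) and Top2a (-0.0199), DESeq2 Kif11 (0.029) and the block Kif11 (0.0605). Summing aged samples turned Top2a (-0.012), Kif11 (0.015 and 0.024) and Cdk1 (-0.0051). Leaving out samples changed signs in Mcm2 (-0.028 to 0.18), Ccne2 (-0.025 to 0.14), Cdk1 (-0.014 to 0.057), Foxm1 (-0.097 to 0.0078), Rrm2 (-0.22 to 0.056), Tk1 (-0.079 to 0.014), Top2a (-0.044 to 0.10), Birc5 (-0.039 to 0.11) and Kif11 (-0.046 to 0.068).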
